A study of Mus musculus with 12 samples.

Results

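The gene set described here holds 30 mouse genes of cholesterol synthesis, of its control by the transcription factor SREBP2, and of the handling of cholesterol inside the cell. They were taken by gene symbol from a list of the pathway drawn up with earlier results of these data known. A row was found for 28 of the 30 among 23621 symbols, and all 28 passed the filter on low counts that left 10604 genes for testing. Tm7sf2 and Lipa were not analysed here. The 28 genes comprise 18 enzymes of sterol synthesis, 6 genes of SREBP2 control, and 4 genes of sterol transport, lysosomal export and esterification.

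The study profiled polyadenylated RNA of neutrophils from female Balb/c mice aged 8 weeks, in 3 groups of 4 libraries. The low-density neutrophil (LDN) and high-density neutrophil (HDN) libraries came from peripheral blood of mice bearing liver metastases, and the Naïve libraries came from bone marrow neutrophils of mice named as naïve. No allele, transgene or drug is named for any group, and the tumour is not specified further in the sources used here. Tissue and tumour therefore change together in every comparison with Naïve and cannot be told apart. The LDN and HDN columns also carry a date-like tag that the Naïve columns lack. That tag and the groups cannot be told apart either. Libraries LDN 3, 4, 5 and 7 share their numbers with HDN 3, 4, 5 and 7. Nothing in the labels ties each library to its own animal, so the spread that p-values rest on may be technical.

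Cholesterol is built in the cytosol and endoplasmic reticulum from acetyl-CoA. The mevalonate enzymes make farnesyl diphosphate, which feeds both protein prenylation and sterols, and the later enzymes join it into squalene, close the rings and trim lanosterol to cholesterol. SREBP2 is made as a membrane protein of the endoplasmic reticulum. When membrane sterol is low, SCAP escorts it to the Golgi, where the proteases encoded by Mbtps1 and Mbtps2 release the part that enters the nucleus and activates genes of synthesis and uptake. When sterol is high, INSIG proteins hold the SCAP complex back.

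Promoter sequence of 6 of the genes is shown because the synthesis genes had the largest median difference of the set between LDN and HDN, and SREBP2 is known to act at such promoters together with the factors NF-Y, which binds CCAAT, and Sp1, which binds GC boxes. The sequences are from RefSeq on GRCm38.p6, 180 bases ending just before the annotated start, written 5′ to 3′ on the gene's strand. Capitals mark CCAAT on either strand (ATTGG on the strand shown) and, in Hmgcs1, one match to TCACNCCAC, a pattern resembling the sterol regulatory element. Hmgcs1 lies at chr13:119690171-119690350 (+), Mvk at chr5:114444089-114444268 (+), Idi1 at chr13:8885426-8885605 (+), Nsdhl at chrX:72918341-72918520 (+), Hsd17b7 at chr1:169969206-169969385 (−) and Sc5d at chr9:42264301-42264480 (−). The first 5 were higher in LDN than in HDN, and Sc5d was lower.
Hmgcs1: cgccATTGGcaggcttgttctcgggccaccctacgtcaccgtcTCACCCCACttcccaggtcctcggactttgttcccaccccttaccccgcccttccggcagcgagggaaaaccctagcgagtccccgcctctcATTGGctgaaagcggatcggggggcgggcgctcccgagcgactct
Mvk: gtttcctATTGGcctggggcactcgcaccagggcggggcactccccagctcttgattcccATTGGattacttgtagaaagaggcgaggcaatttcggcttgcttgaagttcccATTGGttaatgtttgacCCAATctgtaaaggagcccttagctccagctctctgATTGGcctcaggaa
Idi1: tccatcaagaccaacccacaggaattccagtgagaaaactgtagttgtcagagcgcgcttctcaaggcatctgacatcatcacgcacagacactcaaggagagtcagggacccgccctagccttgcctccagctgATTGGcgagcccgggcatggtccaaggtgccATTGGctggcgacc
Nsdhl: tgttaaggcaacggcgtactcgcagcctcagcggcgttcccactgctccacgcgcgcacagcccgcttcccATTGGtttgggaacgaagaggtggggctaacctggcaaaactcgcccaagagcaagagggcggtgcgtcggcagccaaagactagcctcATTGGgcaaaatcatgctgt
Hsd17b7: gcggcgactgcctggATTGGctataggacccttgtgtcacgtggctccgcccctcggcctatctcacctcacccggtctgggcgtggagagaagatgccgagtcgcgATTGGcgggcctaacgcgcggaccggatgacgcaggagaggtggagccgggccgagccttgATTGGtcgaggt
Sc5d: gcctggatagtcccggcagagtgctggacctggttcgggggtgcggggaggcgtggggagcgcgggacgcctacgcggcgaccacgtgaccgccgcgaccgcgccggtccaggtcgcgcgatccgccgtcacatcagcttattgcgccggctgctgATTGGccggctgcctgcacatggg
CCAAT occurred 5 times in the stretch of Mvk, 3 times in that of Hsd17b7 and 1 time in that of Sc5d.

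Over the longer RefSeq windows, from 250 bases before to 50 bases after the start, 23 of the 28 genes could be searched on both strands. Fdft1, Fdps, Sqle, Stard4 and Npc1 are named only. CCAAT was found in 19 of the 23 genes (82.6%), against 42.8% of the tested genes with a window (3482 of 8145). It was present in 13 of the 13 searched genes that were higher in LDN than in HDN and in 6 of the 10 other members. A gene with several annotated starts was counted if any of its windows matched, and the higher genes had more windows per gene. By window, CCAAT was in 13 of 18 (72.2%) for the higher genes and in 6 of 11 (54.5%) for the others. Over windows of all tested genes the share was 37.5%. The GC box GGGCGG was found in 20 of the 23 genes (87.0%), against 68.8% of the tested genes. TCACNCCAC was found in 1 of the 23 genes, Hmgcs1, 137 bases before its start, against 1.36% of the tested genes (111 of 8145). None of the 3 motifs contains another, and a match is a description of the sequence only.

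Each library held between 18113922 and 30044508 counted reads, and levels below are CPM (read counts scaled to a common library total) of the TMM-scaled library, comparable between libraries for 1 gene but not between genes. A count of 3 reads corresponded to 0.0954 to 0.153 CPM. The labels name no molecular identifiers, so reads may not be independent molecules and this floor covers counting error only. A list of 13 measured neutrophil genes summed to 196400 to 258300 CPM in LDN, 79640 to 130800 CPM in HDN and 204700 to 238400 CPM in Naïve. Neutrophil transcripts were thus abundant in every library, although 9 of the 13 were higher and 1 lower in LDN than in HDN. The shares over all tested genes were 26% higher and 20.3% lower. These are bulk libraries, in which fewer cells of a type and less RNA per cell cannot be told apart. Library values are given in the order 3, 4, 5 and 7 for LDN and for HDN, and 1 to 4 for Naïve.

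In LDN against HDN, most enzymes of cholesterol synthesis were several-fold higher, and 3 of the set's 4 transport and esterification genes were not called. By edgeR's quasi-likelihood test at an adjusted p under 0.05, 17 of the 28 genes were higher in LDN, 2 were lower and 9 were not called. Over all tested genes 26% were called higher, 20.3% lower and 46.3% in either direction. The higher genes comprised 14 of the 18 synthesis enzymes, Srebf2 and Insig2 of the 6 control genes, and the sterol carrier Stard4 of the 4 transport genes. The median log2 fold change was 1.83 over the synthesis enzymes and 0.20 over the other 10 genes, beside 0.02 over all tested genes. All 4 LDN libraries lay above all 4 HDN libraries for 16 of the 28 genes and below them for 1, against 23.6% and 15.7% of the tested genes (39.2% in either direction). When the 20 most abundant genes were left out of the library sizes, which moved the median gene by -0.14 on the log2 scale, 15 members were higher and 4 lower, and the split over all genes was 2245 higher and 2776 lower, beside 2761 and 2153 with TMM scaling. Under that scaling Dhcr7 and Insig2 lost their call, and Scap and Npc1 were called lower.

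The synthesis enzymes together came to 476, 457, 583 and 613 CPM in the LDN libraries. Their sum was 203, 213, 201 and 209 CPM in the HDN libraries and 232, 221, 228 and 246 CPM in the Naïve libraries. Every LDN library thus lay far above every library of the other groups, while the HDN sum lay a little below Naïve with no overlap. That last difference was not shared by all enzymes, since 3 were higher in HDN than in Naïve, 6 were lower and 9 were not called. Msmo1 averaged 18.8 CPM in HDN and 53.2 CPM in Naïve, and Hsd17b7 1.30 and 20.9 CPM. Sc5d went the other way, at 47.4 CPM in HDN and 18.8 CPM in Naïve. The 10 control and transport genes summed to 921 to 1015 CPM in LDN, 704 to 860 CPM in HDN and 527 to 601 CPM in Naïve. The HDN sum stood between the others, but the abundant genes weigh most in it and single genes differed from this order. Srebf2 averaged 247.4 CPM in LDN, 100.5 CPM in HDN and 142.4 CPM in Naïve, so it was lowest in HDN. Npc1 had its highest mean in HDN (109 CPM, beside 100 CPM in LDN and 34.1 CPM in Naïve).

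**Figure D1:**
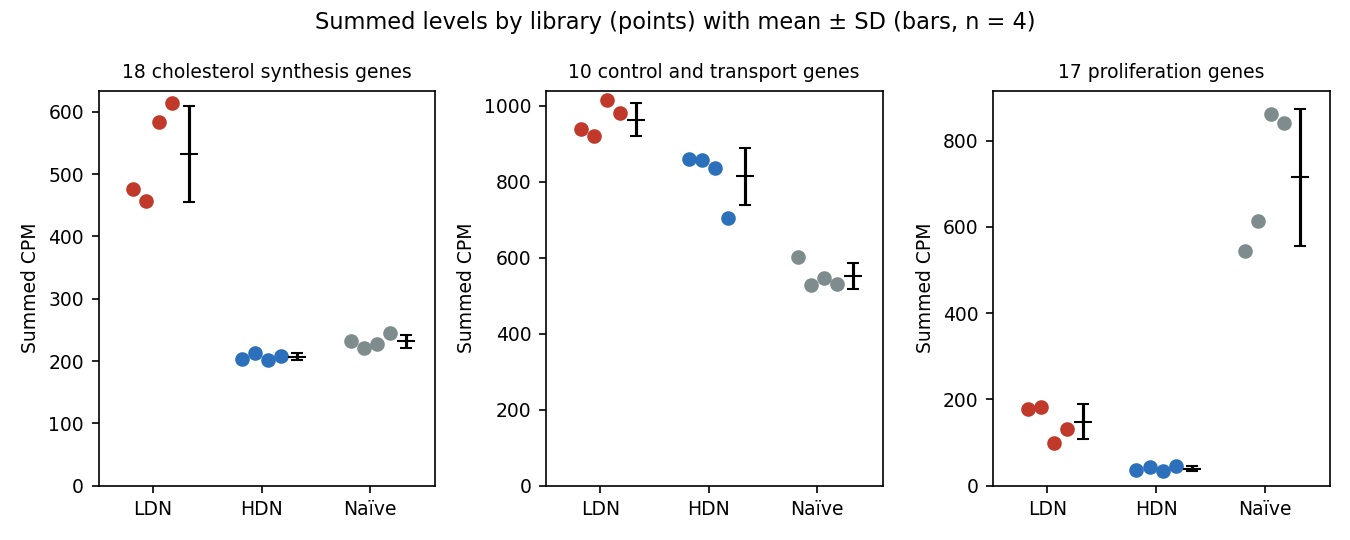
Summed level in CPM of the 18 synthesis genes, the 10 control and transport genes and a list of 17 proliferation genes, with 1 point per library and bars for the mean ± SD (n = 4) in LDN, HDN and Naïve. The synthesis sum is 457 to 613 CPM in LDN, 201 to 213 CPM in HDN and 221 to 246 CPM in Naïve, while the proliferation sum is highest in Naïve.

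In HDN against Naïve the set moved in both directions. The late sterol enzymes Hsd17b7 and Msmo1 and the mevalonate kinase Mvk were lower in HDN, while Sc5d and the lysosomal cholesterol exporter Npc1 were higher. Of the 28 genes, 8 were higher in HDN, 8 were lower and 12 were not called, against 30% of all tested genes called higher, 29.9% lower and 59.8% in either direction. Among the synthesis enzymes 3 were higher and 6 lower, with a median log2 fold change of -0.33, and among the control and transport genes 5 were higher and 2 lower, with a median of 0.56 (0.04 over all tested genes). The called share of the whole set, 16 of 28, is near the background. Every HDN library lay above every Naïve library for 7 of the 28 genes and below for 7, against 25.5% and 27.8% of the tested genes (53.3% in either direction). When the 20 most abundant genes were left out of the library sizes, which moved the median gene by -0.15, 7 members were higher and 10 lower, with Pmvk and Nsdhl gaining a call and Mbtps1 losing its call, and the split over all genes was 2488 higher and 3676 lower, beside 3177 and 3167 with TMM scaling.

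In LDN against Naïve most of the set was higher. Of the 28 genes, 22 were higher in LDN, 1 was lower (the cytosolic thiolase Acat2) and 5 were not called, against 27.4% of all tested genes called higher, 26.8% lower and 54.2% in either direction. All 10 control and transport genes tested were higher, with a median log2 fold change of 0.78, and 12 of the 18 synthesis enzymes were, with a median of 1.39 (0.01 over all tested genes). Every LDN library lay above every Naïve library for 21 of the 28 genes and below for 1, against 27.5% and 27.8% of the tested genes (55.3% in either direction). When the 20 most abundant genes were left out of the library sizes, which moved the median gene by -0.29, 16 members were higher, and Sc5d, Scap, Insig1, Insig2, Mbtps1 and Mbtps2 lost their call. The split over all genes was then 1852 higher and 3968 lower, beside 2910 and 2840 with TMM scaling. The 3 comparisons share libraries, so their values are given side by side below and are not independent of each other.

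**Figure D2:**
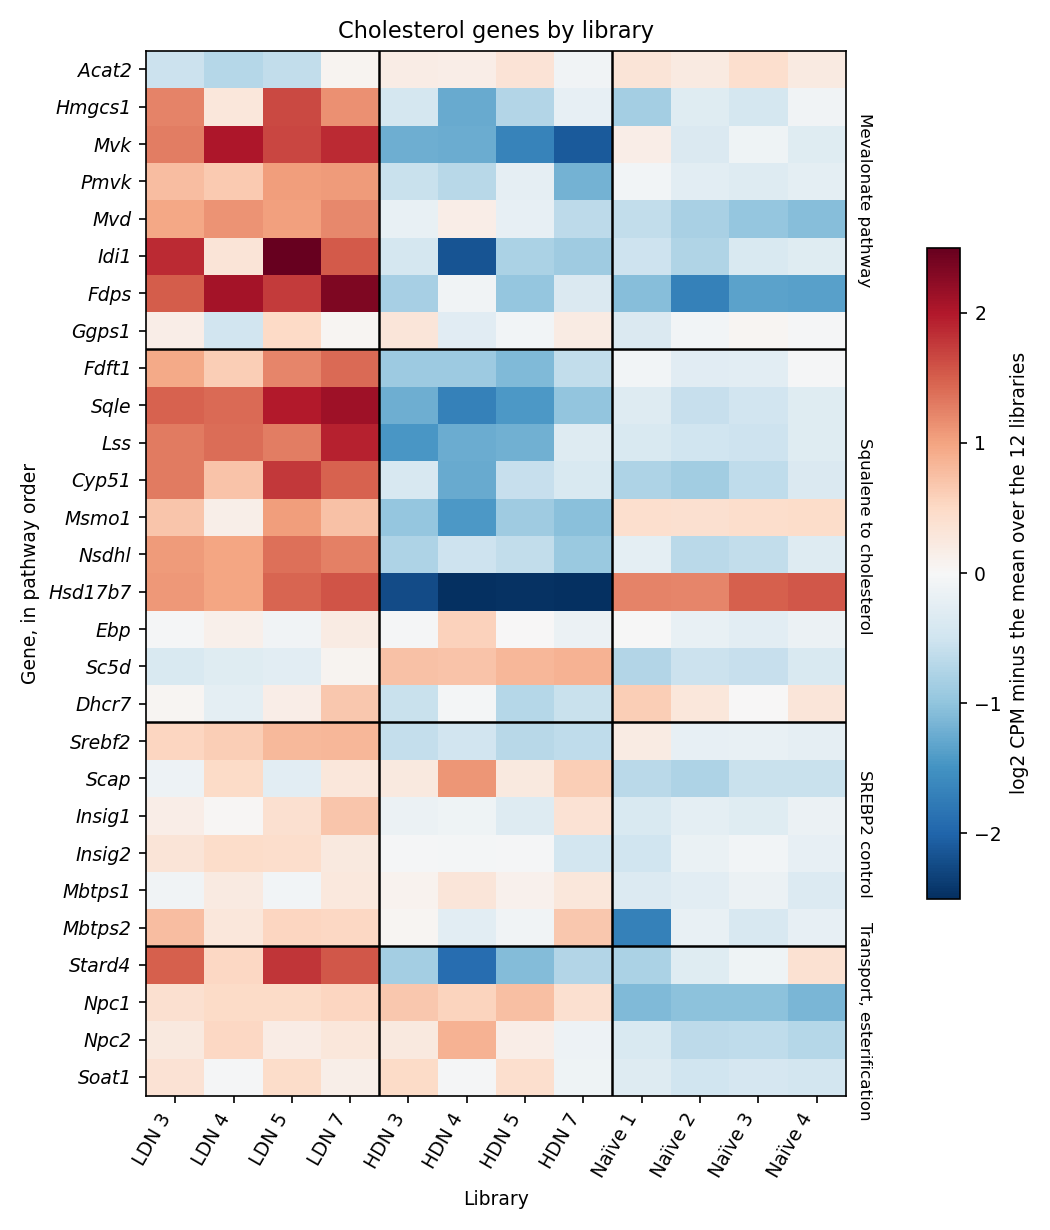
Level of each of the 28 genes in each of the 12 libraries, as log2 CPM minus the gene's mean over the 12 libraries, with genes in pathway order from top to bottom and libraries grouped as LDN, HDN and Naïve; colours are capped at the ends of the scale. Most synthesis genes are above their mean in LDN and below it in HDN, Sc5d is highest in HDN, and Npc1, Npc2 and Soat1 are below their mean in Naïve.

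**Figure D3:**
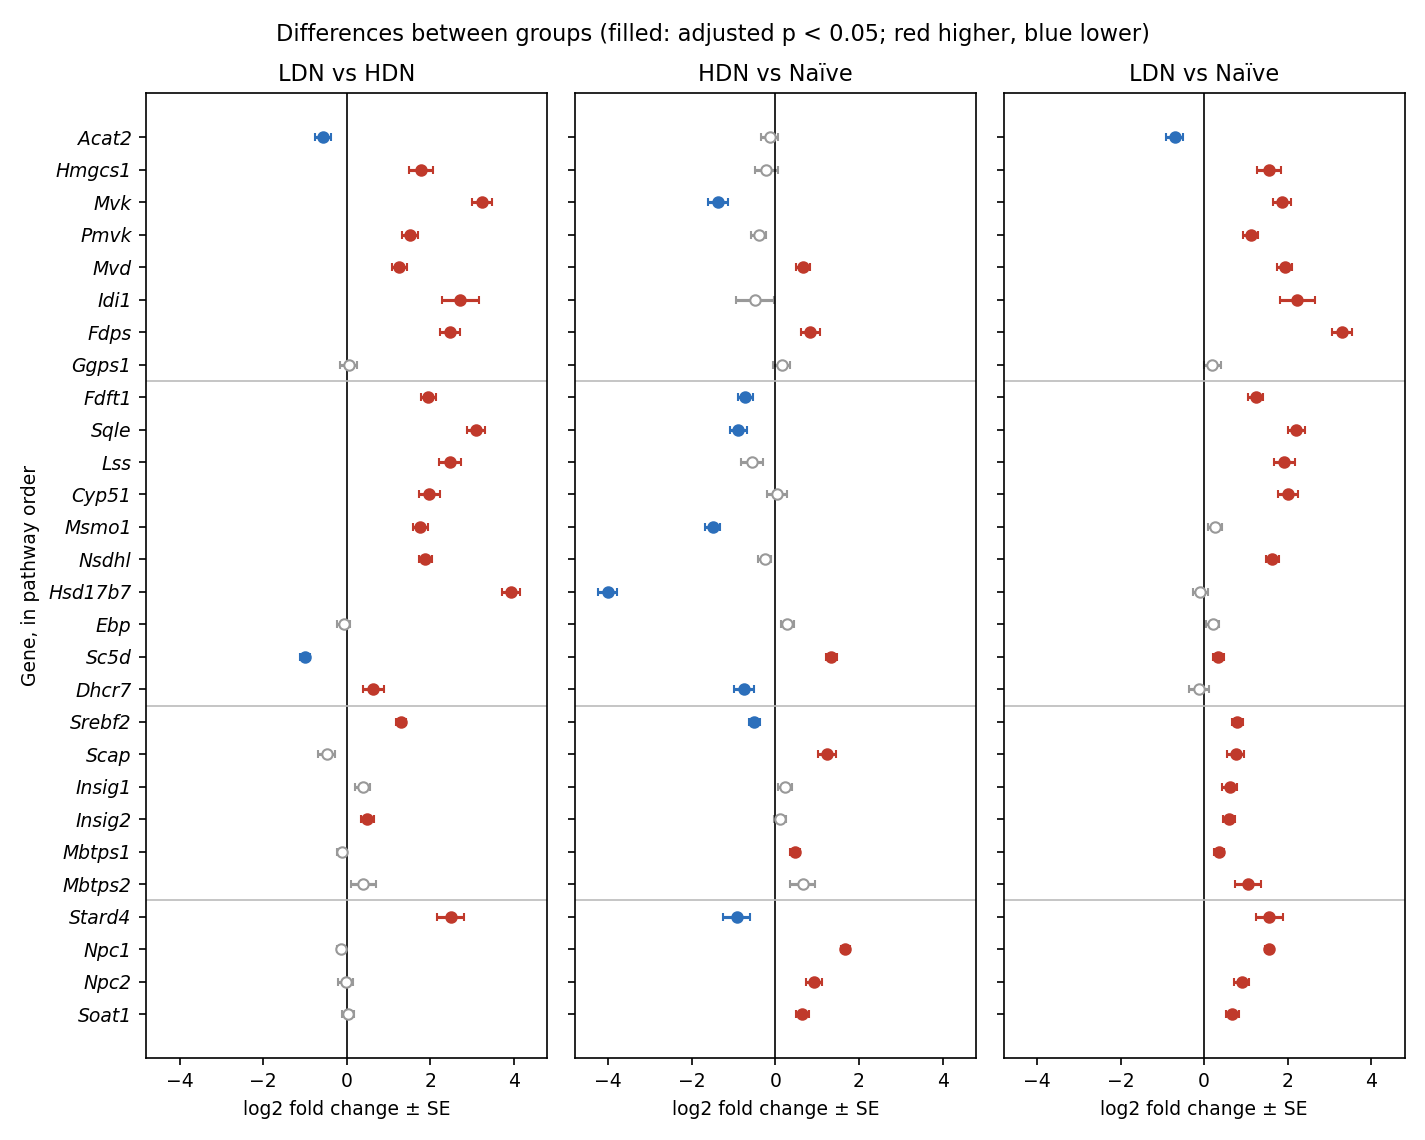
Fitted log2 fold change ± SE of each gene in LDN over HDN, HDN over Naïve and LDN over Naïve, with filled points for an adjusted p under 0.05 (red higher, blue lower) and open points for genes not called. Hsd17b7 has the largest value in the first panel, 3.92, and the lowest in the second, -4.02, and lies at -0.09 in the third.

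Of the 8 mevalonate enzymes, 6 were higher in LDN than in HDN, 1 was lower and 1 was not called, with a median log2 fold change of 1.64. The shares over all tested genes were 26% higher and 20.3% lower. Acat2 encodes the thiolase that joins acetyl-CoA units at the start of the route. It measured 2.21, 1.94, 2.09 and 3.35 CPM in LDN, 3.64, 3.56, 4.04 and 3.02 CPM in HDN and 3.98, 3.73, 4.27 and 3.74 CPM in Naïve. The level was lower in LDN than in HDN (log2 fold change -0.57 ± 0.20, adjusted p = 0.0333), although LDN 7 lay inside the HDN range. The adjusted p was 0.0558 to 0.0832 on leaving out LDN 3, LDN 4, LDN 5, HDN 3 or HDN 5 in turn, and 0.0561 in the fit of the 8 libraries compared. Against Naïve, Acat2 was lower in LDN with no overlap (-0.71 ± 0.20, adjusted p = 0.00905), and the HDN value was -0.14 ± 0.20 (adjusted p = 0.560).

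Hmgcs1, which makes the intermediate that enters the mevalonate pathway, measured 63.5, 32.9, 85.2 and 59.4 CPM in LDN, 19.8, 11.3, 16.2 and 23.5 CPM in HDN and 14.95, 21.95, 20.03 and 25.4 CPM in Naïve. Every LDN library was above every other library, and HDN and Naïve overlapped. Its level in LDN was 3.41-fold that in HDN (log2 1.77 ± 0.28, adjusted p = 0.000230) and 2.93-fold that in Naïve (log2 1.55 ± 0.28, adjusted p = 0.000385). Its HDN value against Naïve was -0.22 ± 0.28 (adjusted p = 0.515). The gene also varied within groups, with LDN 4 and HDN 4 each the lowest of their group. LDN 4 was the lowest LDN library for 12 of the 18 synthesis enzymes, and HDN 4 was the lowest HDN library for 8 of them.

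Mvk, Pmvk and Mvd act in sequence to phosphorylate mevalonate and decarboxylate the product. Mvk measured 11.2, 18.7, 14.7 and 16.7 CPM in LDN, 1.99, 1.94, 1.45 and 1.07 CPM in HDN and 5.20, 3.58, 4.27 and 3.74 CPM in Naïve. The 3 groups did not overlap. The level of Mvk in LDN was 9.49-fold that in HDN (log2 3.25 ± 0.24, adjusted p = 7.32e-07). It was lower in HDN than in Naïve (-1.38 ± 0.24, adjusted p = 0.000188) and higher in LDN than in Naïve (1.86 ± 0.22, adjusted p = 1.19e-05). Pmvk measured 18.95, 17.4, 22.9 and 22.99 CPM in LDN, 7.56, 6.87, 9.44 and 4.89 CPM in HDN and 10.5, 9.26, 8.85 and 9.39 CPM in Naïve. All LDN libraries exceeded all others, at log2 1.51 ± 0.19 over HDN (adjusted p = 3.42e-05) and 1.11 ± 0.19 over Naïve (adjusted p = 0.000214). Its HDN value against Naïve was -0.40 ± 0.19 (adjusted p = 0.0788), and without HDN 5 it was called lower (adjusted p = 0.0209). Mvd ranged from 27.9 to 32.6 CPM in LDN, 9.08 to 16.1 CPM in HDN and 6.87 to 9.33 CPM in Naïve. It was higher in LDN than in HDN (1.26 ± 0.17, adjusted p = 6.53e-05), higher in HDN than in Naïve (0.66 ± 0.17, adjusted p = 0.00451, with overlap) and higher in LDN than in Naïve (1.93 ± 0.18, adjusted p = 1.01e-06). Unlike Mvk, its level in HDN therefore lay above that in Naïve.

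Idi1 interconverts the isoprenoid building blocks, and Fdps condenses them to farnesyl diphosphate. Idi1 had the fewest reads of the enzymes in HDN and in Naïve, with 286 in LDN, 51 in HDN and 65 in Naïve over 4 libraries each. It measured 3.59, 1.25, 5.67 and 2.89 CPM in LDN, 0.727, 0.223, 0.571 and 0.534 CPM in HDN and 0.688, 0.590, 0.763 and 0.808 CPM in Naïve. All LDN libraries were above all others, at log2 2.72 ± 0.43 over HDN (adjusted p = 0.000225) and 2.23 ± 0.42 over Naïve (adjusted p = 0.000533), with -0.49 ± 0.46 for HDN over Naïve (adjusted p = 0.378). Fdps measured 86.5, 129, 103 and 154 CPM in LDN, 17.01, 28.7, 15.6 and 23.8 CPM in HDN and 14.5, 9.41, 11.95 and 11.9 CPM in Naïve. The groups were separate, with LDN highest and Naïve lowest. In LDN the Fdps level was 5.54-fold that in HDN (log2 2.47 ± 0.23, adjusted p = 3.36e-06) and 9.88-fold that in Naïve (log2 3.30 ± 0.24, adjusted p = 1.21e-07). HDN was also above Naïve (0.83 ± 0.22, adjusted p = 0.00551). In the GENCODE annotation Fdps shares 1124 exonic bases with Gm43738 on the same strand, a gene without a row in the counts.

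Ggps1 takes farnesyl diphosphate away from sterols, toward geranylgeranyl groups for protein prenylation. It was not called in any of the 3 comparisons. Its mean was 7.82 ± 2.08 CPM in LDN, 7.59 ± 1.39 CPM in HDN and 6.83 ± 0.815 CPM in Naïve (SD, n = 4 each), and the log2 value for LDN over HDN was 0.05 ± 0.21 (adjusted p = 0.878).

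Of the 10 enzymes from squalene to cholesterol, 8 were higher in LDN than in HDN, 1 was lower and 1 was not called, with a median log2 fold change of 1.92. In HDN against Naïve 1 was higher, 5 were lower and 4 were not called, and in LDN against Naïve 6 were higher and 4 were not called. In the same order, the shares over all tested genes were 26% higher and 20.3% lower, 30% and 29.9%, and 27.4% and 26.8%. Fdft1, squalene synthase, commits farnesyl diphosphate to sterols. It measured 35.2, 28.2, 42.6 and 48.97 CPM in LDN, 9.74, 9.79, 8.53 and 11.95 CPM in HDN and 17.6, 15.02, 15.4 and 17.9 CPM in Naïve. The groups did not overlap, with LDN highest and HDN lowest. The log2 fold change was 1.95 ± 0.18 for LDN over HDN (adjusted p = 2.87e-06), -0.72 ± 0.17 for HDN over Naïve (adjusted p = 0.00290) and 1.23 ± 0.17 for LDN over Naïve (adjusted p = 4.7e-05). In the GENCODE annotation 774 exonic bases of Fdft1 overlap the abundant protease gene Ctsb on the other strand, and whether counting used strand is not given in the sources used here. Ctsb itself had a log2 fold change of -0.45 in LDN over HDN and 2.15 in HDN over Naïve, opposite in sign to Fdft1 in both, and 1.70 in LDN over Naïve, the same sign as Fdft1. The part of Ctsb reads in the Fdft1 counts was not tested.

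Sqle, squalene epoxidase, catalyses the step after squalene that is often rate-limiting. It measured 22.7, 21.8, 32.3 and 35.3 CPM in LDN, 3.49, 2.51, 3.01 and 4.12 CPM in HDN and 6.50, 5.42, 5.80 and 6.61 CPM in Naïve. The 3 groups were again separate, in the order LDN, Naïve, HDN from high to low. The Sqle level in LDN was 8.54-fold that in HDN (log2 3.09 ± 0.21, adjusted p = 4.16e-07), and within same-numbered pairs the log2 ratio was 2.67 to 3.38 in 4 of 4 pairs. HDN was lower than Naïve (-0.89 ± 0.20, adjusted p = 0.00189) and LDN was higher (2.20 ± 0.20, adjusted p = 1.07e-06).

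Lss closes the sterol rings to form lanosterol, and Cyp51 starts the removal of its methyl groups. Lss measured 6.22, 6.69, 6.18 and 9.64 CPM in LDN, 0.921, 1.08, 1.10 and 2.02 CPM in HDN and 1.95, 1.81, 1.78 and 2.07 CPM in Naïve. LDN was separate from both other groups, at log2 2.48 ± 0.26 over HDN (adjusted p = 8.1e-06) and 1.91 ± 0.25 over Naïve (adjusted p = 2.43e-05). The HDN value against Naïve was -0.56 ± 0.26 (adjusted p = 0.0778), and without HDN 7, the 1 HDN library inside the Naïve range, it was called lower (adjusted p = 0.00506). Cyp51 measured 26.7, 17.6, 36.6 and 30.02 CPM in LDN, 8.14, 4.51, 7.23 and 8.24 CPM in HDN and 6.31, 5.90, 6.97 and 8.33 CPM in Naïve. HDN and Naïve overlapped widely while LDN stood above both, at log2 1.98 ± 0.24 over HDN (adjusted p = 2.85e-05) and 2.01 ± 0.24 over Naïve (adjusted p = 1.19e-05). HDN over Naïve was 0.03 ± 0.24 (adjusted p = 0.919). Cyp51 shares 166 exonic bases with Akap9 on the other strand, and Lss shares 381 with a gene of the other strand that had 2 reads. Hmgcs1, Idi1, Npc1 and Scap also share exonic bases with genes of the other strand, which have no row in the counts.

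Msmo1, Nsdhl and Hsd17b7 act together on the remaining methyl groups of the sterol ring. Msmo1 measured 64.3, 43.6, 81.4 and 65.8 CPM in LDN, 20.3, 14.7, 21.2 and 19.1 CPM in HDN and 52.5, 52.3, 53.7 and 54.4 CPM in Naïve. HDN was far below both other groups, whose ranges overlapped. The log2 fold change was 1.76 ± 0.17 for LDN over HDN (adjusted p = 5.37e-06), -1.50 ± 0.17 for HDN over Naïve (adjusted p = 5.25e-06) and 0.26 ± 0.17 for LDN over Naïve (adjusted p = 0.211). Hsd17b7 measured 16.99, 15.9, 21.8 and 23.9 CPM in LDN, 1.70, 0.922, 1.45 and 1.15 CPM in HDN and 18.9, 18.7, 22.6 and 23.5 CPM in Naïve. HDN stood alone at a low level. Hsd17b7 was 15.2-fold higher in LDN than in HDN (log2 3.92 ± 0.22, adjusted p = 1.22e-07) and 16.2-fold lower in HDN than in Naïve (log2 -4.02 ± 0.22, adjusted p = 5.35e-09). LDN over Naïve was -0.09 ± 0.19 (adjusted p = 0.707).

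Nsdhl measured 26.5, 25, 33.2 and 30.4 CPM in LDN, 7.46, 8.84, 8.26 and 6.64 CPM in HDN and 10.8, 7.97, 8.34 and 10.1 CPM in Naïve. Here Naïve was near HDN and far below LDN. LDN was higher than HDN by log2 1.88 ± 0.16 (adjusted p = 1.71e-06) and higher than Naïve by 1.63 ± 0.16 (adjusted p = 1.64e-06), and HDN over Naïve was -0.25 ± 0.16 (adjusted p = 0.180).

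Among the last enzymes, Sc5d, the lathosterol oxidase, ran against most of the earlier enzymes in LDN against HDN. It measured 21.04, 22.3, 23.1 and 28.8 CPM in LDN, 45.5, 45.04, 48.99 and 50.2 CPM in HDN and 16.6, 18.9, 18.5 and 21.1 CPM in Naïve. Every HDN library was above every library of the other groups. LDN was lower than HDN (log2 -0.99 ± 0.13, adjusted p = 4.23e-05), in 4 of 4 pairs, and HDN was higher than Naïve (1.34 ± 0.13, adjusted p = 9.3e-07). LDN over Naïve was 0.34 ± 0.13 (adjusted p = 0.0362), with overlap, and this call ended without LDN 3 (0.0559), LDN 4 (0.0722), LDN 5 (0.0929), LDN 7 (0.249), Naïve 1 (0.165), Naïve 2 (0.0809) or Naïve 3 (0.0767). It also ended with RLE scaling (0.0672), with DESeq2 (0.0541), with no filter (0.106), in the fit of the 8 libraries compared (0.0624) and without the 20 most abundant genes (0.825).

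Ebp, the sterol isomerase, was not called in any comparison and averaged 34.4 ± 3.26 CPM in LDN, 36.2 ± 8.81 CPM in HDN and 29.8 ± 2.17 CPM in Naïve (SD, n = 4 each). Dhcr7, which reduces the immediate precursor to cholesterol, ranged from 1.799 to 3.40 CPM in LDN, 1.29 to 2.07 CPM in HDN and 2.14 to 3.25 CPM in Naïve. LDN overlapped both other groups, while all 4 HDN libraries lay below all 4 Naïve libraries. LDN over HDN was 0.64 ± 0.25 (adjusted p = 0.0475, higher in 3 of 4 pairs), and the adjusted p was 0.0890 with the pair number as a block, 0.0655 with RLE scaling, 0.112 without the 20 most abundant genes, 0.0658 with DESeq2, 0.0580 with limma-voom, 0.0877 with no filter and 0.0992 in the fit of the 8 libraries compared. It was also above 0.05 on leaving out LDN 3 (0.0798), LDN 5 (0.0933), LDN 7 (0.217), HDN 3 (0.0966), HDN 5 (0.110), HDN 7 (0.0865), Naïve 1 (0.0619), Naïve 2 (0.0671), Naïve 3 (0.0527) or Naïve 4 (0.0608). HDN was lower than Naïve (-0.75 ± 0.25, adjusted p = 0.0168; 0.0506 without Naïve 1).

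**Figure D4:**
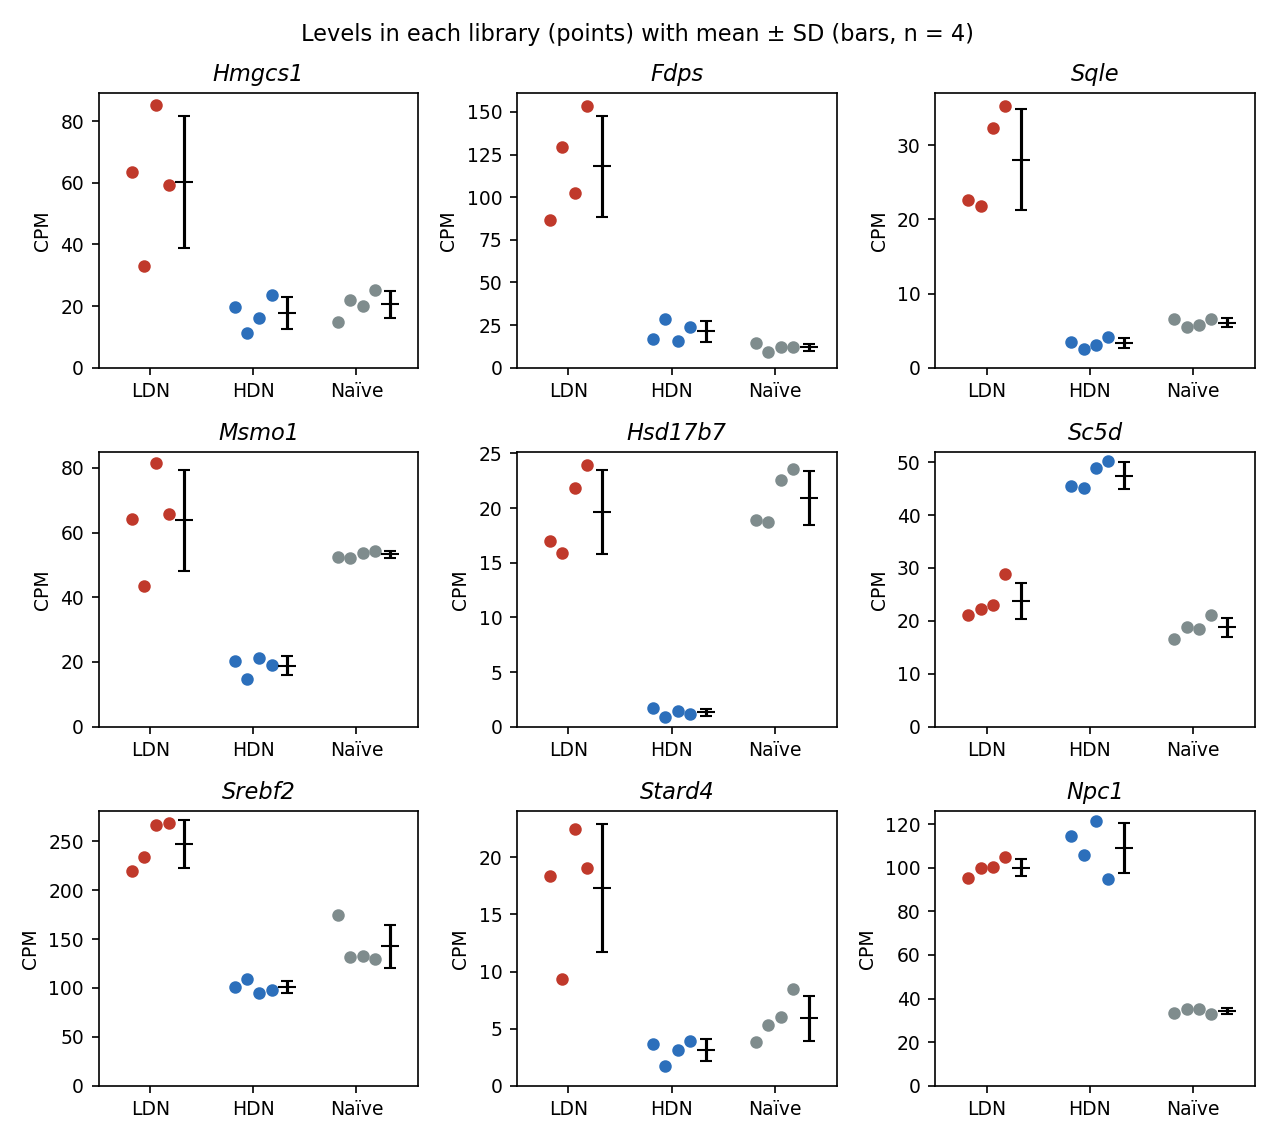
Level in CPM of 9 of the genes, with 1 point per library and bars for the mean ± SD (n = 4) in LDN, HDN and Naïve. Hsd17b7 and Msmo1 are low in HDN alone, Sc5d is high in HDN alone, Npc1 is low in Naïve alone, and Hmgcs1, Fdps and Sqle are highest in LDN.

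Of the 6 genes of SREBP2 control, 2 were higher in LDN than in HDN and 4 were not called, a share near the 26% of all tested genes called higher. All 6 were higher in LDN than in Naïve, against 27.4% of all tested genes. Srebf2, which encodes SREBP2, measured 220.1, 234, 267 and 269 CPM in LDN, 101, 109, 94.4 and 98.4 CPM in HDN and 175, 131, 133 and 130.0 CPM in Naïve. The 3 groups were separate, with HDN lowest, and Naïve 1 stood above the other 3 Naïve libraries. The Srebf2 level in LDN was 2.46-fold that in HDN (log2 1.30 ± 0.12, adjusted p = 3.71e-06) and 1.74-fold that in Naïve (log2 0.80 ± 0.12, adjusted p = 9.43e-05). It was lower in HDN than in Naïve (-0.50 ± 0.12, adjusted p = 0.00277). Transcript levels do not measure the cleavage of SREBP2.

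Scap, the escort of SREBP2, measured 29.98, 45.2, 26.97 and 39.4 CPM in LDN, 38.8, 69.9, 38.4 and 49.6 CPM in HDN and 20.5, 19, 22.2 and 22.01 CPM in Naïve. LDN and HDN overlapped, and both were above Naïve in every library. LDN over HDN was -0.48 ± 0.20 (adjusted p = 0.0716), and LDN was the lower library in 4 of 4 pairs. With the pair number as a block the difference was called (-0.51, adjusted p = 0.0020), as it was without LDN 4 (0.0207), HDN 3 (0.0482) or HDN 5 (0.0427). The same call was made with RLE scaling (0.0464), with DESeq2 (0.0422) and without the 20 most abundant genes (0.0380). Scap was higher than in Naïve both in HDN (1.23 ± 0.21, adjusted p = 0.000164) and in LDN (0.76 ± 0.21, adjusted p = 0.00694).

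Insig1 and Insig2 encode the proteins that retain the complex in the endoplasmic reticulum, and Insig1 is itself a known SREBP target. Insig1 measured 18.7, 16.98, 21.96 and 26.9 CPM in LDN, 15.1, 15.3, 13.2 and 21.2 CPM in HDN and 12.7, 13.95, 13.5 and 15.1 CPM in Naïve. LDN and HDN overlapped through HDN 7, and all LDN libraries were above Naïve. The log2 fold change over HDN was 0.38 ± 0.18 (adjusted p = 0.0945, higher in 4 of 4 pairs), with an adjusted p of 0.0488 with the block and 0.0190 without HDN 7. Over Naïve it was 0.61 ± 0.18 in LDN (adjusted p = 0.0106; 0.0770 without LDN 7 and 0.0508 without Naïve 1) and 0.23 ± 0.18 in HDN (adjusted p = 0.284). Its value over HDN was below those of the 14 synthesis enzymes that were higher. Insig2 measured 16.4, 18.1, 17.9 and 15.6 CPM in LDN, 12.9, 12.8, 12.9 and 9.62 CPM in HDN and 9.25, 11.7, 12.6 and 11.4 CPM in Naïve. It was higher in LDN than in HDN (0.50 ± 0.15, adjusted p = 0.0140) and than in Naïve (0.60 ± 0.15, adjusted p = 0.00364), with no overlap in either case, although the adjusted p over HDN was 0.0562 when the 20 most abundant genes were left out of the library sizes. HDN over Naïve was 0.10 ± 0.15 (adjusted p = 0.571).

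The proteases that release SREBP2 were not called between LDN and HDN. Mbtps1 averaged 51.8 ± 6.54 CPM in LDN, 56.01 ± 4.47 CPM in HDN and 40.4 ± 2.46 CPM in Naïve (SD, n = 4 each). It was higher than in Naïve in HDN (0.47 ± 0.12, adjusted p = 0.00305; 0.0652 without the 20 most abundant genes) and in LDN (0.36 ± 0.12, adjusted p = 0.0175), the call in LDN ending without LDN 4 (0.0913), LDN 7 (0.115), Naïve 1 (0.0717) or Naïve 2 (0.0529), and also with no filter (0.0584) and without the 20 most abundant genes (0.722). Mbtps2, which shares 2867 exonic bases with Yy2 on the same strand, averaged 6.12 ± 0.826 CPM in LDN, 4.65 ± 1.44 CPM in HDN and 2.97 ± 1.13 CPM in Naïve (SD, n = 4 each). It was higher in LDN than in Naïve (1.05 ± 0.30, adjusted p = 0.00951). HDN over Naïve was 0.65 ± 0.30 (adjusted p = 0.0766; 0.0468 without HDN 4).

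Among the transport and storage genes, Stard4, a soluble sterol carrier and known SREBP2 target, followed the synthesis enzymes, while Npc1, Npc2 and Soat1 were not called between LDN and HDN with TMM scaling. Stard4 measured 18.4, 9.32, 22.5 and 19.1 CPM in LDN, 3.64, 1.75, 3.08 and 3.93 CPM in HDN and 3.79, 5.28, 6 and 8.48 CPM in Naïve. All LDN libraries were above all others, and LDN 4 and HDN 4 were again the lowest of their groups. In LDN the Stard4 level was 5.61-fold that in HDN (log2 2.49 ± 0.33, adjusted p = 5.14e-05), and its log2 value over Naïve was 1.56 ± 0.32 (adjusted p = 0.000891). HDN was lower than Naïve (-0.93 ± 0.32, adjusted p = 0.0236), a call that ended without HDN 4 (0.0617) or Naïve 4 (0.0855).

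Npc1 and Npc2 together export cholesterol from lysosomes, and Soat1 esterifies cholesterol for storage in droplets. Npc1 measured 95.2, 99.7, 100.3 and 105 CPM in LDN, 114, 106, 121 and 94.8 CPM in HDN and 33.5, 35.1, 35.3 and 32.7 CPM in Naïve. The blood groups overlapped each other and lay far above Naïve. HDN was higher than Naïve by log2 1.68 ± 0.10 (3.20-fold, adjusted p = 1.27e-08) and LDN by 1.55 ± 0.10 (2.93-fold, adjusted p = 5.28e-08), and LDN over HDN was -0.13 ± 0.10 (adjusted p = 0.325). Leaving the 20 most abundant genes out of the library sizes made the LDN over HDN value -0.26, which was called (adjusted p = 0.0265). Npc2 measured 139, 169.9, 134 and 144 CPM in LDN, 139.6, 215, 133 and 107 CPM in HDN and 90.2, 75.4, 76.1 and 72.1 CPM in Naïve. It too was above Naïve in every blood library, at 0.92 ± 0.18 in HDN (adjusted p = 0.000570) and 0.90 ± 0.18 in LDN (adjusted p = 0.000836), with -0.02 ± 0.18 between LDN and HDN (adjusted p = 0.934). Soat1 measured 347, 266, 372 and 298 CPM in LDN, 378, 264, 364 and 253 CPM in HDN and 216, 191, 201 and 197 CPM in Naïve. Again both blood groups were higher than Naïve, by 0.64 ± 0.15 in HDN (adjusted p = 0.00234) and 0.67 ± 0.15 in LDN (adjusted p = 0.00204), with 0.03 ± 0.15 for LDN over HDN (adjusted p = 0.898).

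The authors' deposited table for LDN against HDN gave the same call as the values above for 26 of the 28 genes. In the authors' deposited table Scap was lower (log2 -0.52, adjusted p = 0.0423), and in the authors' deposited table Dhcr7 was not called (adjusted p = 0.0658). The authors' deposited tables gave the same call for 28 of the 28 genes in HDN against Naïve and for 27 in LDN against Naïve, where Sc5d had an adjusted p of 0.0552.

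Genes that supply or neighbour the pathway were examined from further lists. Of 7 tested genes that feed or complete sterol synthesis, 5 were higher in LDN than in HDN and 1 was lower, against 26% and 20.3% of all tested genes. Acly and Acss2, which make cytosolic acetyl-CoA from citrate and from acetate, were both higher. Acss2 averaged 55.3 ± 7.46 CPM in LDN libraries and 23.4 ± 5.17 CPM in HDN libraries (log2 1.24 ± 0.17, adjusted p = 7.5e-05), and Acly 453 ± 27.2 CPM in LDN libraries and 267 ± 30.9 CPM in HDN libraries (0.76 ± 0.11, adjusted p = 7.97e-05; SD, n = 4 each). Of 7 tested genes listed under SREBP1 and fatty acid synthesis, 4 were higher and 3 were not called, with a median log2 fold change of 1.52. Srebf1, which encodes SREBP1, was among those not called (-0.10 ± 0.14, adjusted p = 0.586). Fasn, the fatty acid synthase, averaged 12.2 ± 4.23 CPM in LDN libraries and 1.49 ± 0.655 CPM in HDN libraries (SD, n = 4 each; 3.02 ± 0.34, adjusted p = 1.53e-05), and Acaca, which makes its substrate malonyl-CoA, had a log2 value of 1.52 ± 0.27 (adjusted p = 0.000582).

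The other lists were mixed in LDN against HDN, where 26% of all tested genes were higher and 20.3% lower. Of 12 tested genes of the isoprenoid branches, 6 were higher and 2 lower (median 0.34), of 11 genes of regulation and uptake 3 were higher and 2 lower (median 0.11), and of 12 further intracellular transport genes 4 were higher and 3 lower (median 0.06). Pdss2, which helps build the side chain of coenzyme Q, was higher (2.32 ± 0.26, adjusted p = 1.67e-05), whereas Coq2, which attaches that chain, was lower (-1.80 ± 0.32, adjusted p = 0.000476). Mylip, an LXR target that promotes breakdown of lipoprotein receptors, averaged 6.19 ± 2.09 CPM in LDN libraries and 28.2 ± 6.56 CPM in HDN libraries (SD, n = 4 each; -2.18 ± 0.24, adjusted p = 1.22e-05). Scarb2, a lysosomal membrane protein, was lower as well (-1.41 ± 0.15, adjusted p = 8.86e-06). Soat2, the paralogue of Soat1, averaged 65.1 ± 8.90 CPM in LDN, 117 ± 10.9 CPM in HDN and 2.40 ± 0.484 CPM in Naïve (SD, n = 4 each), and was lower in LDN than in HDN (-0.84 ± 0.14, adjusted p = 0.000323). Of 5 tested genes listed under cholesterol efflux and LXR, 1 was higher and 3 were lower (median -2.08). The cholesterol exporters Abcg1 (-2.56 ± 0.23, adjusted p = 2.67e-06) and Abca1 (-2.16 ± 0.33, adjusted p = 0.000167) were among the lower.

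Genes of other cells and of cell division also moved with the groups. Beside the counts below, 26% of all tested genes were higher and 20.3% lower in LDN than in HDN. The shares were 27.4% and 26.8% in LDN against Naïve, and 30% and 29.9% in HDN against Naïve. Of 17 proliferation genes, 16 were higher in LDN than in HDN, and 17 were lower in LDN than in Naïve and in HDN than in Naïve. Their sum was 99.0 to 183 CPM in LDN, 33.3 to 45.2 CPM in HDN and 545 to 861 CPM in Naïve. The synthesis sum thus had its highest values in LDN and the proliferation sum in Naïve. Of 14 tested monocyte and macrophage genes, 9 were higher and 3 lower in LDN than in HDN, with sums of 362 to 541 CPM in LDN, 374 to 580 CPM in HDN and 630 to 839 CPM in Naïve. C1qa, C1qb and C1qc were at 0 in HDN, and in LDN they had only 14, 13 and 12 reads over the 4 libraries. The more abundant genes of the list went both ways. Csf1r averaged 122 CPM in LDN and 367 CPM in HDN, and Fn1 averaged 177 CPM in LDN and 12.6 CPM in HDN. Platelet genes, 5 of 6 higher and 1 lower in LDN than in HDN, summed to 28.5 to 33.8 CPM in LDN, 9.54 to 11.6 CPM in HDN and 114 to 125 CPM in Naïve. Most of that sum was Itgb3 in LDN (mean 26.5 CPM) and in Naïve (113 CPM). In HDN it was mostly Itga2b (6.84 CPM), the gene that was lower in LDN. T and NK cell genes, 2 of 6 higher, summed to 33.5 to 51.2 CPM in LDN, 3.59 to 19.6 CPM in HDN and 194 to 267 CPM in Naïve. Most of that sum was Cd3d alone, with means of 34.7 CPM in LDN, 8.11 CPM in HDN and 214 CPM in Naïve. Against Naïve, 2 of the 6 were higher in LDN and 2 were lower. The B cell list had 1 of 6 higher, with 1.30 to 6.33 CPM in LDN, 0.382 to 2.25 CPM in HDN and 19.5 to 53.4 CPM in Naïve. Eosinophil and basophil genes, 1 of 5 higher and 2 lower, summed to 14.2 to 23.6 CPM in LDN, 40.5 to 86.2 CPM in HDN and 15.5 to 65.5 CPM in Naïve. Siglecf made up most of that sum in LDN (mean 17.6 CPM) and HDN (63.1 CPM), and Prg2 in Naïve (26.1 CPM). These sums therefore do not measure the content of those cells. The haemoglobin genes Hba-a1, Hba-a2, Hbb-bs and Hbb-bt were at 0 in every library, and the erythroid list reached 6.66 CPM at most. The part of these genes' cells in the differences of the cholesterol genes was not tested.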

How the data were processed

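Read counts per gene symbol were deposited by the authors. Per the submitters' processing notes, CASAVA 1.8.2, Trimmomatic, STAR and DESeq2 1.16.1 were used. No source used here gives the genome build, annotation or strand setting, and per the labels the library kit was stranded and polyA-selecting. The authors also deposited log2 fold changes and adjusted p-values for the 3 comparisons.

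Counts were tested with edgeR 4.0.16 in R 4.3.3 (limma 3.58.1): TMM scaling (factors 0.825 to 1.28), filterByExpr by group, a quasi-likelihood fit of group alone over the 12 libraries, and Benjamini-Hochberg adjustment over 10604 genes at 0.05. SE is the absolute log2 fold change over the square root of F. Groups were read from the labels. Scripts were tested on simulated data.

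The members and lists were chosen with earlier results of these data known. Values of every library are given for members called in LDN against HDN at an absolute log2 fold change of at least 1.5 or against their role group, and for Srebf2, Scap, Insig1, Insig2, Npc1, Npc2 and Soat1. From other pathway lists, up to 4 called genes with the largest change could be named, and Srebf1 was named in addition. A few genes within that rule are not reported here.

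Same-numbered LDN and HDN libraries deviated together from their group means (correlation over genes 0.31 to 0.76, 4 pairs; other pairs -0.61 to 0.41), so the numbers were taken as pairs, and log2 ratios within pairs used an offset of 0.1 CPM. Numbers shared with Naïve gave -0.13 to 0.16 and were not. Alternatives were RLE scaling, library sizes without the 20 most abundant genes, DESeq2 1.42.0, limma-voom, no filter, a fit of the 8 libraries compared, a replicate block, and leaving out each library. No 2 libraries of a group agreed within sampling noise.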

Additional observations from a re-analysis of the deposited data

Results flagged for a closer look

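Of 144 sets of 4 libraries (1 gene in 1 group each) examined, 4 held a library whose gap to the nearest other was so large a part of the whole range that it passed Dixon's critical value for 4 values. Chance alone flags about 1 in 20 such sets. Lss was at 9.64 CPM in LDN 7, against 6.18 to 6.69 CPM in the other LDN libraries. It was at 2.02 CPM in HDN 7, against 0.921 to 1.10 CPM in the other HDN libraries, so the same-numbered libraries were both the highest of their group. Srebf2 was at 175 CPM in Naïve 1, against 130 to 133 CPM in the other Naïve libraries, and this library still lay below every LDN library. Insig2 was at 9.62 CPM in HDN 7, against 12.8 to 12.9 CPM in the other HDN libraries.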

How the results depend on the processing

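Over 19 alternatives, 16 of the 19 members called in LDN against HDN kept direction and call in all of them, as did 13 of 16 in HDN against Naïve and 16 of 23 in LDN against Naïve. No called member changed direction in any alternative. The members higher numbered 15 to 17, 7 to 9 and 16 to 22 in the same order of comparisons. All genes higher numbered 2120 to 2964, 2488 to 3471 and 1852 to 3162 over the same alternatives. Members lower in LDN than in HDN numbered 2, but 4 when the 20 most abundant genes were left out of the library sizes, 1 in the fit of the 8 libraries compared and 1 to 2 on leaving out a library. All genes lower in LDN than in HDN numbered 1944 to 2848 over the alternatives. Synthesis members lower numbered 1 in the fit of 8 and 1 to 2 on leaving out a library. All genes higher in LDN than in Naïve numbered 1852 without the 20 most abundant genes. With the replicate block, 17 members were higher and 3 lower in LDN than in HDN, beside 2861 and 2848 over all genes. Scap (adjusted p = 0.0020) and Insig1 (0.0488) gained a call and Dhcr7 (0.0890) lost it. For comparisons with Naïve the numbers are not pairs. There the block gave 8 members higher and 8 lower in HDN, beside 2673 and 2981 over all genes. In LDN it gave 17 members higher and 1 lower, beside 2499 and 2607 over all genes. The block moved the log2 fold change of Stard4 to -1.60 in HDN over Naïve and 0.87 in LDN over Naïve. In LDN over Naïve it moved that of Idi1 to 1.57 and that of Sc5d to 0.16 (adjusted p = 0.414).

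Signs turned for uncalled members only. Without the 20 most abundant genes the log2 values were -0.11 (Ggps1) and -0.11 (Soat1) in LDN over HDN, -0.11 (Cyp51) and -0.066 (Insig2) in HDN over Naïve, and -0.11 (Ggps1), -0.040 (Msmo1) and -0.083 (Ebp) in LDN over Naïve. In LDN over HDN, Ggps1 was at -0.0045 with RLE, -0.0047 with no filter, -0.011 in the fit of 8 and -0.029 with the block, and Soat1 at -0.021 with RLE, -0.017 with DESeq2, -0.019 with no filter, -0.024 in the fit of 8 and -0.012 with the block. Npc2 was at 0.021 with limma-voom. In HDN over Naïve, Cyp51 was at -0.0037 with limma-voom and -0.42 with the block, and Ggps1 at -0.10 with the block. Ggps1 was at -0.071 with the block in LDN over Naïve. On leaving out a library the ranges were -0.17 to 0.14 (Ggps1), -0.18 to 0.11 (Ebp), -0.15 to 0.21 (Npc2) and -0.11 to 0.13 (Soat1) in LDN over HDN, -0.052 to 0.20 (Cyp51) in HDN over Naïve and -0.010 to 0.30 (Ggps1) in LDN over Naïve. The cause was not tested.

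Depth limits Idi1, with 51 reads over the HDN libraries, Hsd17b7 with 132, whose large folds rest on this low HDN level, Lss with 135, Dhcr7 with 167 and Mvk with 168.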
